A study of Homo sapiens with 28 samples.

Results

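Knockdown of CBP was examined in LNCaP prostate cancer cells that had already lost most of their HOXB13. The comparison held 4 of the 28 RNA-seq samples of the series, chosen by their treatment label, with all genes of the FPKM files: 2 shHOXB13+shCBP libraries were set against 2 shHOXB13 libraries. FPKM is the number of fragments per kilobase of gene, scaled to the mapped reads of the library, so a level of 1 FPKM is low and one of 100 FPKM is high. LNCaP is an established, androgen-dependent line from a prostate cancer metastasis, and its genotype was otherwise labelled WT. Both groups carried the HOXB13 hairpin, and shHOXB13+shCBP cells also carried 1 hairpin against CBP. The labels name no control hairpin in its place in shHOXB13 cells. An added vector, an off-target effect of the CBP hairpin and loss of CBP therefore cannot be told apart. The shHOXB13+shp300, shCtrl+shCBP and shCtrl libraries (2 each) served as comparators, and all 16 knockdown libraries, with those of shHOXB13+shp300/CBP, shCtrl+shp300 and shCtrl+shp300/CBP, were in the fit that set the variance. A separate CCS1477 series (12 libraries, 3 per group) gave cells with shHOXB13 or shCtrl under 250 nM CCS1477 or DMSO for 48 hours.

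CBP, encoded by CREBBP, and its paralog p300, encoded by EP300, are acetyltransferases that transcription factors recruit to enhancers and promoters, where they acetylate histone tails and other proteins. CBP was first known as the partner of phosphorylated CREB, which binds the cyclic AMP response element (CRE). HOXB13 is a homeodomain factor of the prostate lineage that can recruit the HDAC3 corepressor complex, and CCS1477 is a small molecule that occupies the bromodomains of p300 and CBP.

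The shHOXB13+shCBP libraries were the shallower, with 7458934 and 7960417 mapped reads, against 12515059 and 9518444 in the shHOXB13 libraries. Their share of mapped reads in genes was also lower, at 56.0% and 63.2% in shHOXB13+shCBP cells and 68.8% and 66.3% in shHOXB13 cells. Its part in the results below was not tested. All 18 luminal prostate markers were above 0 in each of these 4 libraries, and their summed level was 3530 and 3990 FPKM in shHOXB13+shCBP cells, against 5150 and 5090 FPKM in shHOXB13 cells. KLK3 made up most of that sum, and the list had a median log2 fold change of -0.28 and no called member. The 12 basal markers summed to 41.4 and 46.0 FPKM in shHOXB13+shCBP cells, against 37.1 and 40.2 FPKM in shHOXB13 cells. LAMA3 alone was at 36.1 and 39.7 FPKM, against 30.9 and 33.7 FPKM, and the list median was 0.01. The 25 neuroendocrine markers summed to 22.2 and 24.2 FPKM in shHOXB13+shCBP cells, against 18.6 and 19.0 FPKM in shHOXB13 cells. TUBB3 alone was at 11.7 and 12.2 FPKM, against 8.17 and 9.32 FPKM, and the median of the 9 tested members was 0.39. Neither sum overlapped between the groups, and neither list had a called member. The sums of fibroblast, immune and endothelial markers were at most 14.1 FPKM and none of their members was called. The part of these markers in the results was not tested.

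CREBBP, on chromosome 16 (3725054 to 3880713, GRCh38), was the target of the added hairpin. It had 3.33 and 2.96 FPKM in shHOXB13+shCBP cells, against 5.15 and 4.72 FPKM in shHOXB13 cells. The groups did not overlap, but the difference did not pass the test over all genes (log2 fold change -0.64, SE 0.16, limma adjusted p = 0.064), and it passed in 3 of the other settings, whose adjusted p ranged between 0.032 and 0.32. In shCtrl cells, with no library in common, CREBBP was at 3.36 and 2.96 FPKM with shCBP, against 6.44 and 5.96 FPKM without it, and this fall passed (log2 fold change -0.95, adjusted p = 0.0041).

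EP300 stood at 6.17 and 5.19 FPKM in shHOXB13+shCBP cells, against 5.62 and 5.88 FPKM in shHOXB13 cells, and these ranges overlapped (log2 fold change -0.02, SE 0.15). HOXB13 was at 9.32 and 9.56 FPKM in shHOXB13+shCBP cells and at 11.2 and 11.4 FPKM in shHOXB13 cells, so both groups were low beside the shCtrl libraries, at 87.6 and 85.4 FPKM. HOXB13 fell with shCBP in shCtrl cells, to 43.2 and 51.5 FPKM (log2 fold change -0.87, adjusted p = 0.0086), so those groups differed in HOXB13 as well as in CREBBP. KAT2A, another acetyltransferase, rose to 27.6 and 27.9 FPKM in shHOXB13+shCBP cells, against 17.4 and 15.3 FPKM in shHOXB13 cells (log2 fold change 0.76, SE 0.14, adjusted p = 0.037). It was the single called member of the 16 acetyltransferases tested, where 0.385% of all genes were called higher.

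Across the transcriptome, 191 genes were lower and 68 higher in shHOXB13+shCBP cells with a limma adjusted p below 0.05 and at least a 1.5-fold difference. These were 1.08% and 0.385% of the 17678 genes tested, and the fold is on the log2(FPKM + 0.1) scale, which understates changes of low genes. Both shHOXB13+shCBP libraries lay below both shHOXB13 libraries for 31.6% of all genes, and above both for 17.4%. The median change of all genes was -0.08, and rescaling the libraries to their median ratio shifted it by 0.10 and gave 262 lower and 199 higher genes, a lower share of 56.8% of the calls in place of 73.7%. A mean of at least 10 reads per library was reached by 185 of the 190 lower genes and 55 of the 67 higher genes with recovered reads. That mean was taken over all knockdown libraries, so a gene with few reads in the 4 compared could reach it. TRIM49, called higher, had 8 and 16 reads in shHOXB13+shCBP cells, against 1 and 2 in shHOXB13 cells. On simulated data the same fit made false calls above its nominal rate, mostly in genes of few reads. The simulation gave every gene the same spread beyond counting error, so its rate need not hold for these libraries. The variance of the fit pooled 8 knockdown groups of unequal spread. Over genes averaging at least 1 FPKM, replicates correlated at 0.9799 in shHOXB13, 0.9675 in shHOXB13+shCBP and 0.9446 in shHOXB13+shp300/CBP cells. The pooled variance therefore need not be that of the groups compared. The calls rested on all 4 libraries, and on the other 12 knockdown libraries for their variance: with the 4 libraries alone limma called 0 genes, with 2330 lower and 1003 higher at an unadjusted p under 0.05. Without shHOXB13+shCBP replicate 1 they numbered 7 lower and 8 higher, without shHOXB13 replicate 1 or without shHOXB13 replicate 2 they numbered 4 lower and 7 higher, and without shHOXB13+shCBP replicate 2 they numbered 183 lower and 28 higher. In bulk RNA, fewer cells of a kind and less RNA per cell cannot be told apart.

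Among the largest falls were enzymes of fatty acid handling in peroxisomes and mitochondria. NUDT19, a peroxisomal hydrolase of coenzyme A compounds, had 9.31 and 10.4 FPKM in shHOXB13+shCBP cells, against 29.5 and 25.8 FPKM in shHOXB13 cells (log2 fold change -1.48, SE 0.13, adjusted p = 0.00072). AMACR, the racemase that prepares branched fatty acids for oxidation and a known prostate cancer marker, was at 0.48 and 0.75 FPKM in shHOXB13+shCBP cells, against 1.91 and 2.19 FPKM in shHOXB13 cells (log2 fold change -1.61, SE 0.30). HADH, a dehydrogenase of mitochondrial beta-oxidation, fell to 15.9 and 20.7 FPKM in shHOXB13+shCBP cells, against 51.3 and 46.1 FPKM in shHOXB13 cells (log2 fold change -1.42, SE 0.23). In each of these genes the lowest shHOXB13 library was more than 2-fold above the highest shHOXB13+shCBP library.

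Lipid and membrane genes also fell. CHPT1, which makes phosphatidylcholine in its last step, was at 104 and 158 FPKM in shHOXB13+shCBP cells, against 321 and 282 FPKM in shHOXB13 cells, so an abundant transcript fell by 1.23 on the log2 scale. The sphingosine phosphate lyase SGPL1 was at 5.69 and 6.99 FPKM in shHOXB13+shCBP cells, against 14.7 and 14.9 FPKM in shHOXB13 cells. Other large falls were UGT1A1, an enzyme of glucuronidation, with a log2 fold change of -1.57, and HIF1A, the oxygen-regulated factor, with -1.34. UGT1A1 shares its 3′ exons with the other UGT1A genes, where reads cannot be assigned to 1 gene, so its level is uncertain. The secreted protein gene CRISP3 (-1.15), the endosomal exchanger gene SLC9A7 (-1.23) and WDR44 (-1.13), whose product binds the GTPase RAB11, were also among the 15 largest, which leave out MIR, SNOR, RNU, LOC and LINC entries and genes under 1 FPKM in both groups.

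**Figure D1:**
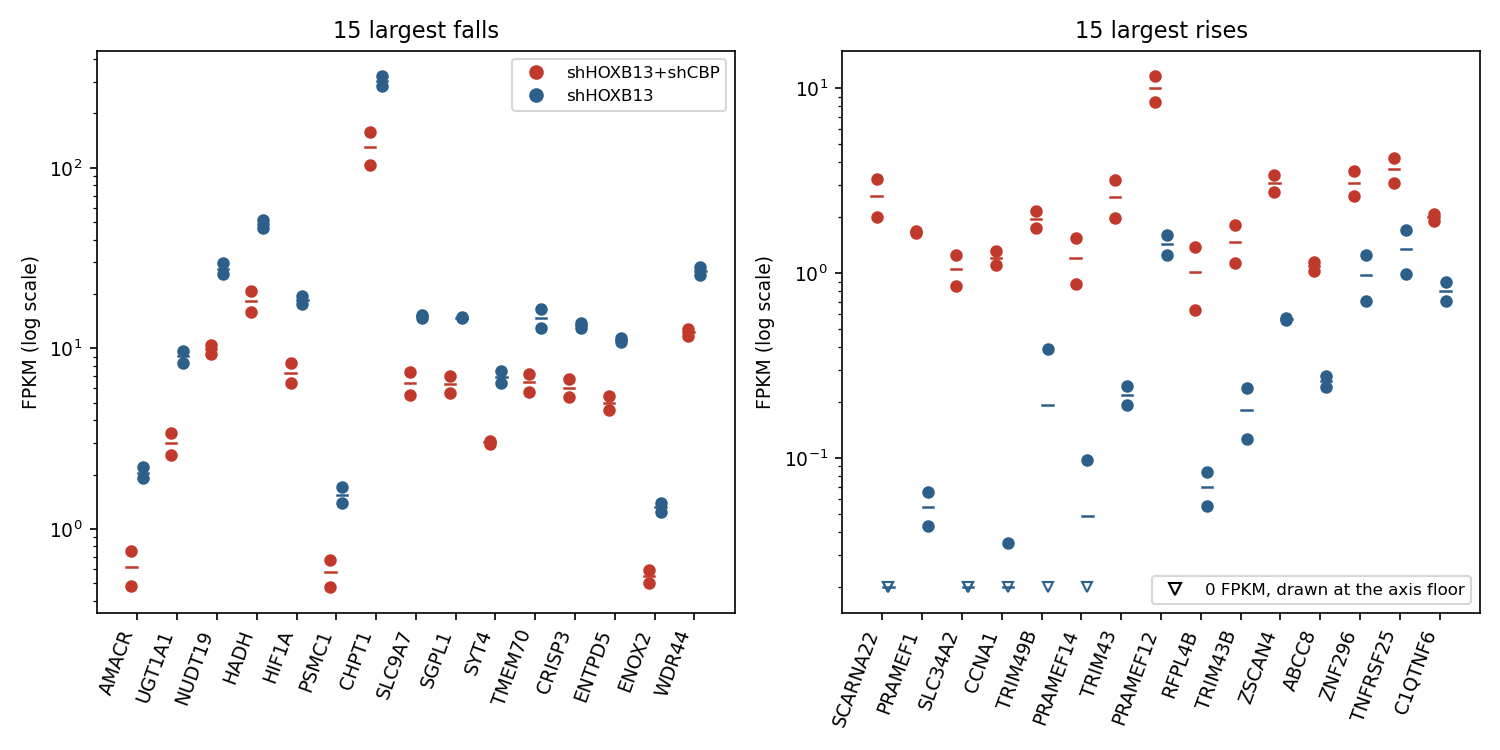
FPKM on a log axis for each library, shHOXB13+shCBP (red) and shHOXB13 (blue), for the 15 largest falls (left) and the 15 largest rises (right), with a bar at each group mean. Genes had a mean of at least 1 FPKM in a group, LOC, MIR, SNOR, RNU and LINC entries were left out, and the groups do not overlap, as the choice of genes required. Open triangles mark libraries at 0 FPKM, as for SLC34A2 in both shHOXB13 libraries. SCARNA22, the largest rise shown, had 5 reads in shHOXB13+shCBP and 0 in shHOXB13 cells. Against a floor of 3 reads per library it was at least 1.18-fold higher.

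In a list of branched-chain amino acid breakdown, written after the called genes were seen and therefore not tested, 9 of 25 members fell, none rose, and the median log2 fold change was -0.66. They were ACAD8, ACADSB, ALDH6A1, AUH, DBT, DLD, HADH, MUT and PCCA, whose products act along the routes from valine, isoleucine and leucine to the tricarboxylic acid cycle. Over all genes, 1.08% fell and the median was -0.08. ALDH6A1, of valine breakdown, had 5.53 and 5.21 FPKM in shHOXB13+shCBP cells, against 11.5 and 11.3 FPKM in shHOXB13 cells (log2 fold change -1.07, SE 0.14, adjusted p = 0.0084). In shCtrl cells, whose levels were not part of that contrast but whose libraries shared its fit and variance, 6 of the 25 fell with shCBP and the median was -0.43, where 6.67% of all genes fell and their median was -0.11.

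The tricarboxylic acid cycle and pyruvate entry list, also written afterwards, had 8 of 31 members lower and none higher, with a median of -0.53. The share called lower over all genes was 1.08%. OAT, which links ornithine to glutamate, was at 3.33 and 4.08 FPKM in shHOXB13+shCBP cells, against 8.56 and 7.48 FPKM in shHOXB13 cells. IDH1, the cytosolic isocitrate dehydrogenase, was at 31.4 and 42.5 FPKM in shHOXB13+shCBP cells, against 73.6 and 66.0 FPKM in shHOXB13 cells. Both fell, and in shCtrl cells 9 of the 31 fell with shCBP and none rose, where 6.67% of all genes fell. The oxidative phosphorylation list had 3 of 36 members lower, among them UQCRC2 and UQCRFS1 of complex III, and a median of -0.08, equal to that of all genes.

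In the fatty acid synthesis list the median was -0.47, with 16 of 24 members separated downward, beside 31.6% of all genes. In it 1 member passed, where 1.08% of all genes were called lower. This was ELOVL5, the elongase of polyunsaturated fatty acids, which fell to 114 and 123 FPKM in shHOXB13+shCBP cells, against 195 and 198 FPKM in shHOXB13 cells (log2 fold change -0.73, SE 0.16, adjusted p = 0.049). FASN, the fatty acid synthase, had 573 and 579 FPKM in shHOXB13+shCBP cells and 864 and 832 FPKM in shHOXB13 cells, a log2 fold change of -0.56 that was under the fold threshold. None of the 20 cholesterol synthesis genes was called, although both shHOXB13+shCBP libraries lay below both shHOXB13 libraries for 16 of them, and the list's median was -0.36. FDFT1, which makes squalene, was at 106 and 138 FPKM in shHOXB13+shCBP cells and at 202 and 207 FPKM in shHOXB13 cells (adjusted p = 0.059).

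INSIG1, the sterol-regulated retainer of SREBP in the endoplasmic reticulum, fell to 39.1 and 59.9 FPKM in shHOXB13+shCBP cells, against 103 and 107 FPKM in shHOXB13 cells (log2 fold change -1.12, SE 0.25, adjusted p = 0.049). The acyl-CoA synthetase ACSL3 had 144 and 169 FPKM in shHOXB13+shCBP cells, against 290 and 273 FPKM in shHOXB13 cells, and ACSL1 had 160 and 203 FPKM in shHOXB13+shCBP cells, against 322 and 301 FPKM in shHOXB13 cells. Both passed, with log2 fold changes of -0.85 and -0.79, and they were the 2 called members of 16 synthetases. Fatty acid oxidation had 3 of 25 members lower (ACADM, ETFDH and HADH) and a median of -0.43. All genes had 1.08% called lower and a median of -0.08.

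Androgen response genes lay lower as a list. Of 29 members 3 passed, HERC3, STEAP2 and TSC22D3, none rose, and the median was -0.56, with 24 members separated downward. Over all genes, 1.08% were called lower and 31.6% were separated downward. STEAP2, a metalloreductase of the prostate epithelium, had 64.4 and 75.7 FPKM in shHOXB13+shCBP cells, against 118 and 115 FPKM in shHOXB13 cells (log2 fold change -0.74, SE 0.14, adjusted p = 0.037). KLK3, which encodes prostate-specific antigen, was at 2220 and 2440 FPKM in shHOXB13+shCBP cells and at 3480 and 3360 FPKM in shHOXB13 cells, with an adjusted p of 0.17.

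Of the CREB factors and CBP partners, PRKACB and PRKAR1A, a catalytic and a regulatory subunit of protein kinase A, fell out of 22 tested. For this and the lists below, the share of all genes called lower was 1.08%. PRKACB was at 53.3 and 62.7 FPKM in shHOXB13+shCBP cells, against 111 and 98.5 FPKM in shHOXB13 cells (log2 fold change -0.86, SE 0.15). None of the 31 tested CREB and immediate early targets was called, and their median was -0.35. In a list of COPII transport and N-glycosylation written after the called genes were seen, 8 of 43 members fell, among them SEC23B, a coat subunit, and UAP1, which makes UDP-N-acetylglucosamine, and the median was -0.39. In shCtrl cells 2 members of this list fell, 8 rose and the median was 0.15, where 6.67% of all genes fell and 3.39% rose. The unfolded protein response list had DNAJB9 lower, a chaperone cofactor at 4.23 and 5.79 FPKM in shHOXB13+shCBP cells, against 9.76 and 9.44 FPKM in shHOXB13 cells. Of 14 CDK inhibitors and cyclins, CDKN1B and RBL2 fell by 0.76 and 0.93 on the log2 scale, none rose and the median was 0.03, with 7 members separated upward and 4 downward. Over all genes, 17.4% were separated upward and 31.6% downward. CDKN2A had a log2 fold change of 0.76 (adjusted p = 0.058).

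**Figure D2:**
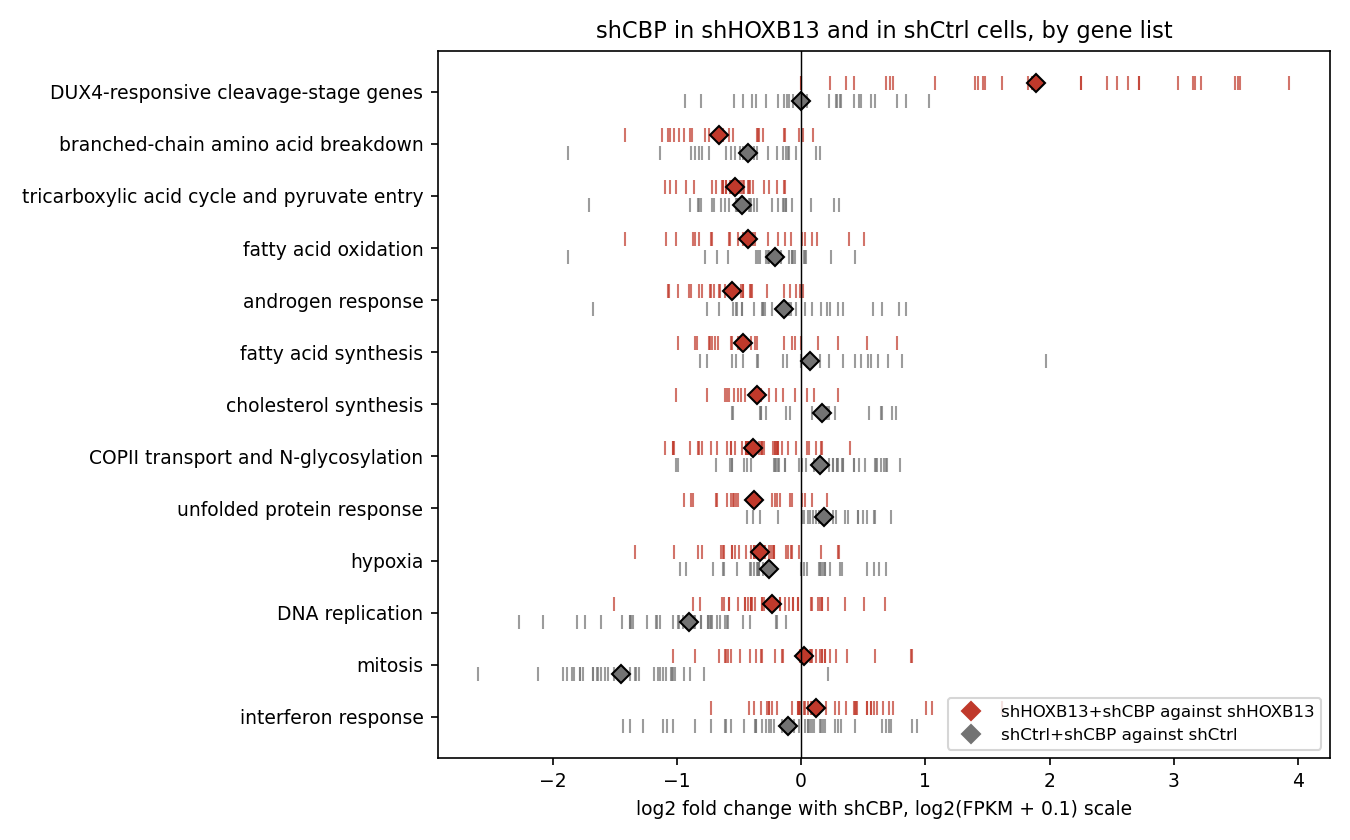
Log2 fold change with shCBP of each tested member of 13 gene lists (ticks) and the list median (diamonds), in shHOXB13 cells (red, upper row of each list) and in shCtrl cells (grey, lower row). The cleavage-stage list has a median of 1.89 in shHOXB13 cells, and the mitosis list has a median of -1.45 in shCtrl cells and 0.03 in shHOXB13 cells.

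The promoters of ELOVL5 and FN1 are shown because both genes fell and both hold a full CRE. Sequences are from RefSeq (GRCh38.p14), 250 bases before to 50 after the gene start, on the strand of the gene, with the CRE (TGACGTCA) in capitals. ELOVL5 lies at chr6:53348901-53349200 on the minus strand and FN1, the gene of the matrix protein fibronectin, at chr2:215436019-215436318 on the minus strand.
ELOVL5: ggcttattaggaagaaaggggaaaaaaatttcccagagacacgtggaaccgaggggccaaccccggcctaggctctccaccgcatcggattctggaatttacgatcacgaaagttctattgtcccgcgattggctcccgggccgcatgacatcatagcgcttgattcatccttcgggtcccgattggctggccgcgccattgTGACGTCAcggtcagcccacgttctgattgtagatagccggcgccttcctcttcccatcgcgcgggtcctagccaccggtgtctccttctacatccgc
FN1: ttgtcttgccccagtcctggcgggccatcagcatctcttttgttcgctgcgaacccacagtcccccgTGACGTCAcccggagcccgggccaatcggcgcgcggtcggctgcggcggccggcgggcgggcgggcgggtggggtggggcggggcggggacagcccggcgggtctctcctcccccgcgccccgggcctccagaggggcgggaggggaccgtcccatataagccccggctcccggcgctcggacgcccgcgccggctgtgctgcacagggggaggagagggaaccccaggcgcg
The full CRE, searched on both strands, was found in 8 of the 165 promoters that matched a gene called lower (4.85%), in 2 of the 46 that matched a gene called higher (4.35%) and in 2.96% of the 12847 promoters of all tested genes. Its core TGACG, which the full element contains, was in 44.8% of those called lower, 19.6% of those called higher (9 of 46) and 32.5% of all. The sterol element TCACNCCAC was in none of the 165 and in 1.07% of all. FN1 was at 11.2 and 11.8 FPKM in shHOXB13+shCBP cells, against 22.5 and 21.3 FPKM in shHOXB13 cells (log2 fold change -0.92, SE 0.19, adjusted p = 0.040).

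The rises held a set of genes known from the early embryo. ZSCAN4, PRAMEF, TRIM43, TRIM49 and RFPL4 genes, CCNA1 and SLC34A2 are switched on by the double homeodomain factor DUX4, which acts at zygotic genome activation in the cleavage-stage embryo. A list of 52 such symbols was written after the called genes were seen, so it has no test. Of its 34 tested members 14 were called higher, none lower, and the median log2 fold change was 1.89 (1.84 with 4 members at 0 reads in shHOXB13 cells set to a floor of 3 reads per library). These 14 made up part of the 68 called genes, beside 9 small RNA genes. A member was tested if it reached 0.1 FPKM in 2 knockdown libraries of any group, so a rise with shCBP could itself admit it. HNRNPCL1 was at 0 FPKM in both shHOXB13 libraries and at 0.229 and 0.322 FPKM in shHOXB13+shCBP cells. Members that stayed lower were left out, so this filter may have raised the called share and the median. The sum over all 48 genes in the files, given below, does not depend on it.

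PRAMEF12 was the most abundant, with 8.45 and 11.6 FPKM in shHOXB13+shCBP cells, against 1.26 and 1.60 FPKM in shHOXB13 cells (log2 fold change 2.72, SE 0.27, adjusted p = 0.0014). ZSCAN4, a zinc finger gene on chromosome 19 (57651476 to 57679152), had 2.75 and 3.41 FPKM in shHOXB13+shCBP cells, against 0.569 and 0.561 FPKM in shHOXB13 cells (log2 fold change 2.25, SE 0.30, adjusted p = 0.0084). TRIM43, of a primate ubiquitin ligase family, was at 1.98 and 3.17 FPKM in shHOXB13+shCBP cells, against 0.246 and 0.194 FPKM in shHOXB13 cells. In all 3 genes the groups were far apart, on few reads: ZSCAN4 had 46 and 61 reads in shHOXB13+shCBP cells, against 16 and 12 in shHOXB13 cells.

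SLC34A2, a sodium phosphate transporter gene, had 1.26 and 0.857 FPKM in shHOXB13+shCBP cells and no read in either shHOXB13 library, so it was at least 16.2-fold higher against a floor of 3 reads per library. CCNA1, the germline cyclin, had 1.11 and 1.31 FPKM in shHOXB13+shCBP cells, against 0.0347 and 0 FPKM in shHOXB13 cells, or 43 reads against 1 (ratio 61.4 per mapped read, exact 95% interval 10.5 to 2480, for counting error only). The PRAMEF, TRIM49 and RFPL4 genes are near-identical copies whose reads often cannot be assigned to 1 copy, so their single values are uncertain. DUX4 itself, in repeat arrays, had no read in the shHOXB13+shCBP libraries and 1 in each shHOXB13 library.

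The promoters of TRIM49B and PRAMEF8, both called higher, are shown for a short form of the DUX4 motif (TAATNNAAT, in capitals), which was chosen after the genes were seen. TRIM49B lies at chr11:49028573-49028872 on the plus strand and PRAMEF8 at chr1:13285088-13285387 on the minus strand.
TRIM49B: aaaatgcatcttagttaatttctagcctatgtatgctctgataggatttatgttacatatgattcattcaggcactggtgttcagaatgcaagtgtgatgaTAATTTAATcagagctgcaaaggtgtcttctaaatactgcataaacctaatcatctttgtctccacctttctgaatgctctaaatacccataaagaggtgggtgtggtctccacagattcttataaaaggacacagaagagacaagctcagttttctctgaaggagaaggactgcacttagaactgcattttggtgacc
PRAMEF8: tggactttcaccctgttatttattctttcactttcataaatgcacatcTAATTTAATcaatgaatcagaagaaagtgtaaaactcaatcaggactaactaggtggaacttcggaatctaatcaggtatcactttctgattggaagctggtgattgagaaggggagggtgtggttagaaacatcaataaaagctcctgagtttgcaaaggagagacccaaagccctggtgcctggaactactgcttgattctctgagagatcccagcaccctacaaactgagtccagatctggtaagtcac
The motif, on either strand, was in 10 of the 28 matched promoters of the tested list (35.7%) and in 1.44% of all tested promoters. Of these 10, only TRIM49B and PRAMEF8 were called higher, and others such as RFPL4A, TRIM48 and MBD3L2 were not called. Among all genes called higher, 4 of 46 matched promoters held the motif (8.7%). Near-identical copies share their promoter sequence, so these 28 are not independent.

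**Figure D3:**
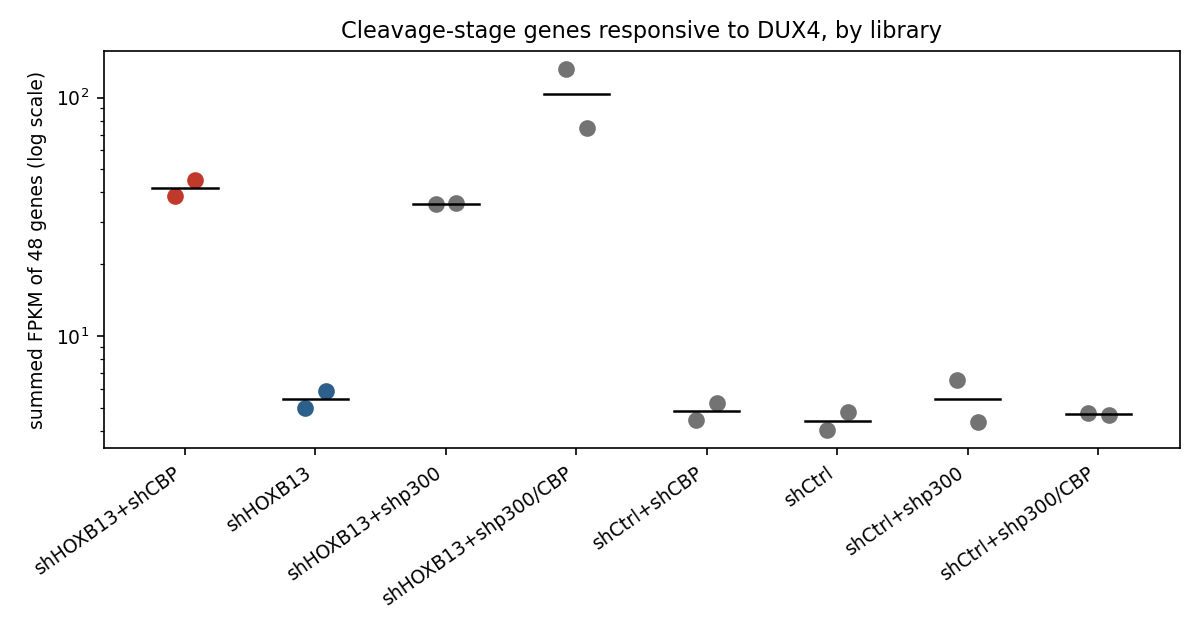
Summed FPKM, on a log axis, of the 48 cleavage-stage genes found in the files, for each library (points) of the 8 knockdown groups, with a bar at the mean. The shHOXB13+shCBP libraries are at 38.7 and 45.1, against 4.98 and 5.87 in the shHOXB13 libraries, and the 8 libraries with shCtrl lie between 4.03 and 6.53.

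Summed over the 48 genes, the level was 38.7 and 45.1 FPKM in shHOXB13+shCBP cells, against 4.98 and 5.87 FPKM in shHOXB13 cells. In shCtrl cells it was 4.44 and 5.24 FPKM with shCBP, against 4.03 and 4.82 FPKM without it, and these ranges overlapped. The shHOXB13+shp300 libraries were at 35.7 and 36.0 FPKM, also above both shHOXB13 libraries. Those of shHOXB13+shp300/CBP were higher still, at 132 and 74.9 FPKM. In the CCS1477 series every library was between 0.665 and 1.42 FPKM.

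Other rises were spread over many functions. ABCC8, the sulfonylurea receptor gene, had 1.03 and 1.15 FPKM in shHOXB13+shCBP cells, against 0.243 and 0.277 FPKM in shHOXB13 cells, and it also rose with shCBP in shCtrl cells (log2 fold change 2.47). TWIST1, a factor of epithelial-mesenchymal transition, was at 2.82 and 3.77 FPKM in shHOXB13+shCBP cells, against 2.06 and 1.64 FPKM in shHOXB13 cells (log2 fold change 0.79, SE 0.18, adjusted p = 0.049). The other called member of its list, FN1, fell.

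The same hairpin in shCtrl cells gave more calls, 1179 lower (6.67%) and 600 higher (3.39%), against shCtrl. No library is shared with the comparison in shHOXB13 cells, but 1 fit gave both their variance. A gene of small variance could be called more easily in both, so the overlaps of calls are not independent. Of the 191 genes lower in shHOXB13 cells, 84 were also lower in shCtrl cells (44.0% of the 191 and 7.1% of the 1179), and 3 were higher there. Their median in shCtrl cells was -0.56, and 167 of them (87.4%) had a negative value, against 60.7% of all genes. Of the 68 higher genes, 17 were also higher in shCtrl cells (25% of the 68 and 2.8% of the 600). NUDT19 was at 6.39 and 5.94 FPKM with shCBP in shCtrl cells, against 19.2 and 20.9 FPKM in shCtrl cells, so it fell in both backgrounds. The scale mattered in shCtrl cells: median-of-ratios scaling shifted the median by 0.13 and gave 776 lower and 966 higher genes, 44.5% lower in place of 66.3%. Without shCtrl+shCBP replicate 1 the shCtrl calls were 227 lower and 184 higher, without shCtrl replicate 1 they were 233 and 113, without shCtrl replicate 2 they were 635 and 384, and without shCtrl+shCBP replicate 2 they were 1024 and 358.

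**Figure D4:**
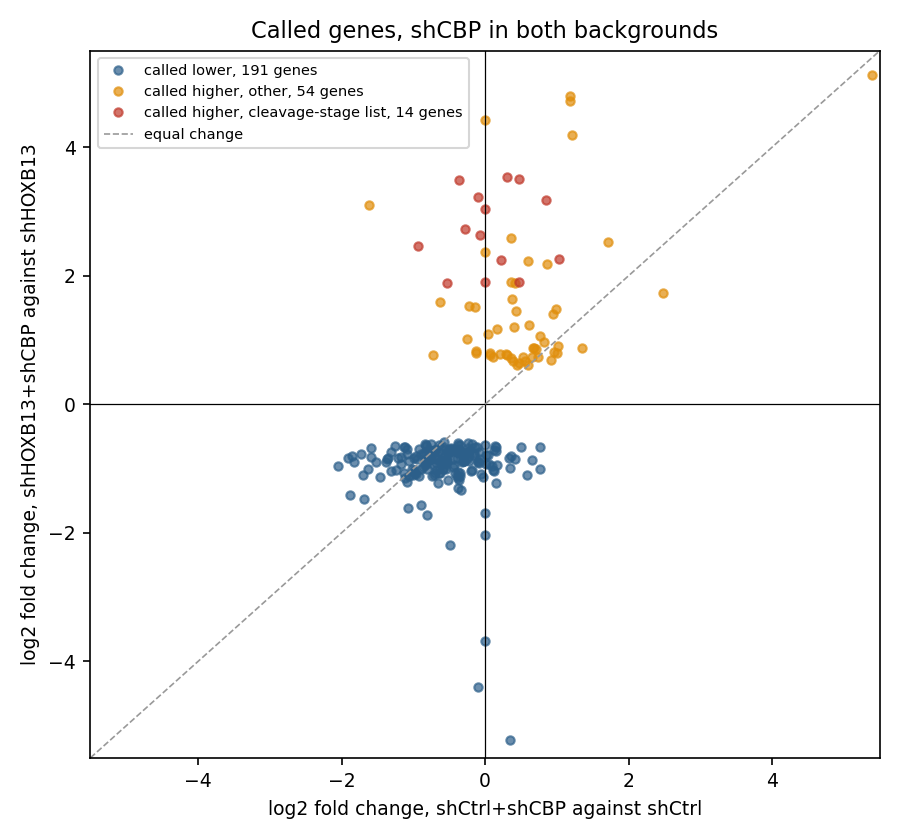
Log2 fold change with shCBP in shHOXB13 cells (y axis) and in shCtrl cells (x axis) for the 259 genes called in shHOXB13 cells, with a dashed line of equal change. The 191 lower genes lie mostly left of 0, and the 14 cleavage-stage genes lie above the line.

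The difference between backgrounds was tested by the interaction term, which was lower for 64 genes (0.362%) and higher for 43 (0.243%). HOXB13 also fell with shCBP in shCtrl cells, as given above, and its part in these differences was not tested. These counts were 173 and 36 without shHOXB13+shCBP replicate 2, 8 and 7 without shHOXB13+shCBP replicate 1, and 3 to 4 and 2 to 5 without any other library of the 4 groups. Median-of-ratios scaling gave 318 and 124, or 71.9% lower in place of 59.8%. ACSL3 had 144 and 169 FPKM in shHOXB13+shCBP cells, against 290 and 273 FPKM in shHOXB13 cells, and 62.5 and 83.3 FPKM in shCtrl+shCBP cells, against 55.8 and 52.0 FPKM in shCtrl cells (interaction -1.27 on the log2 scale, adjusted p = 0.041). HERC3, a ubiquitin ligase gene of the androgen response list, had an interaction of -1.33. TIMP2, a metalloproteinase inhibitor, had 46.1 and 49.1 FPKM in shHOXB13+shCBP cells and 36.7 and 39.8 FPKM in shHOXB13 cells, and rose to 62.1 and 61.0 FPKM in shCtrl+shCBP cells, against 14.98 and 17.5 FPKM in shCtrl cells (interaction -1.61, adjusted p = 0.0024).

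The cell-cycle lists separated the backgrounds by their medians. None of 36 mitosis genes and none of 39 DNA replication genes was called in shHOXB13 cells, with medians of 0.03 and -0.23. In shCtrl cells 24 and 18 of them fell with shCBP, with medians of -1.45 and -0.90, where 6.67% of all genes fell. The median interaction was 1.31 for mitosis and 0.73 for DNA replication, and 2 and 1 of these genes passed the interaction test. HOXB13 knockdown alone set these lists lower, with medians of -2.91 and -1.36 in shHOXB13 against shCtrl cells, a contrast that shares the shHOXB13 libraries.

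Against knockdown of p300 in the same background, shHOXB13+shCBP cells had 321 genes lower (1.82%) and 122 higher (0.69%). CREBBP was at 3.33 and 2.96 FPKM in shHOXB13+shCBP cells, against 5.69 and 6.66 FPKM in shHOXB13+shp300 cells, and EP300 was at 6.17 and 5.19 FPKM, against 3.16 and 3.39 FPKM. The targets thus differed in opposite directions (log2 fold changes -0.95 and 0.77, adjusted p = 0.0092 and 0.024). Interferon response genes set the hairpins apart: 35 of 45 were lower with shCBP than with shp300, none higher, with a median of -1.65, while against shHOXB13 alone none was called and the median was 0.12. Androgen response genes were higher with shCBP than with shp300 in 8 of 29 cases. KLK3 had 2220 and 2440 FPKM in shHOXB13+shCBP cells, against 1234 and 882 FPKM in shHOXB13+shp300 cells (log2 fold change 1.16, adjusted p = 0.016). These calls numbered 72 lower and 41 higher without shHOXB13+shCBP replicate 1, 333 and 60 without shHOXB13+shCBP replicate 2, 88 and 73 without shHOXB13+shp300 replicate 1, and 132 and 41 without shHOXB13+shp300 replicate 2. With median-of-ratios scaling they were 347 lower and 255 higher, 57.6% lower in place of 72.5%.

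The question of whether CBP maintains genes induced by HOXB13 loss was put to lists from the CCS1477 series, which shares no library with this comparison. Of 655 tested genes that shHOXB13 raised at least 2-fold under DMSO, 23 fell and 2 rose with shCBP, where 1.08% of all genes fell and 0.385% rose, with a median of -0.21 beside -0.08 for all genes. Of 445 tested genes that CCS1477 lowered at least 2-fold in shHOXB13 cells, 27 fell and 1 rose, with a median of -0.39. The 197 genes in both lists had 14 lower, none higher and a median of -0.44. Among the 14 were CHPT1, ACSL1, UGT1A1, WDR44, the acid ceramidase gene ASAH1 and the transaminase genes GOT2 and GPT2. ASAH1 was at 214 and 280 FPKM in shHOXB13+shCBP cells, against 453 and 442 FPKM in shHOXB13 cells (log2 fold change -0.87, SE 0.18, adjusted p = 0.042). Without shHOXB13+shCBP replicate 2 the counts of 23 and 27 became 12 and 15, and without any other of the 4 libraries they were at most 1.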

How the data were processed

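RNA-seq of 16 knockdown and 12 CCS1477-series LNCaP libraries was analysed from FPKM values that the authors deposited, 1 table of 26475 genes per sample. The authors aligned paired-end reads to the human genome (GRCh38, hg38 in their processing notes) with STAR 2.6.0 and divided gene reads, counted without strand, by gene length and all mapped reads. The 32 rows without a value were not analysed. Whole reads were recovered from the FPKM of 20266 genes (100.00% of 472393 values within 0.05 of a whole read), which gave depth and gene reads.

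Genes at or above 0.1 FPKM in 2 libraries were tested with limma 3.58.1 (R 4.3.3, trended variance) on log2(FPKM + 0.1), in 1 fit of the 8 knockdown groups, with Benjamini-Hochberg adjustment over 17678 genes. The calls needed an adjusted p below 0.05 with at least a 1.5-fold difference. The CCS1477 series (0.1 FPKM in 3 libraries) was fitted alone, with lists at 2-fold. The fit was tested on simulated data with the same spread beyond counting error in every gene. There it made more false calls than the nominal rate, mostly in genes of few reads. Alternatives changed the pseudocount, filter, scaling, samples, block, weights and threshold, and left out each library. A minimum of 10 mean reads, over all knockdown libraries, was added after seeing the data.

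Members, 36 gene lists and tests were chosen with earlier results of these data known, and 4 further lists and the DUX4 motif after the calls were seen. Named genes were the targets with KLK3 and FASN, the 15 largest falls and rises among called genes with a group mean of 1 FPKM or more and no overlap, leaving out LOC, MIR, SNOR, RNU and LINC entries, up to 3 genes of smallest p per list and the 6 largest interactions; ASAH1, CDKN2A and the members of called groups were named after their values were seen. The libraries are described as biological duplicates.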

Additional observations from a re-analysis of the deposited data

Results flagged for a closer look

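The effect of shCBP differed between shHOXB13 and shCtrl cells by the limma interaction term for 64 genes with a lower and 43 with a higher value in shHOXB13 cells. Among the named genes, the effect in shHOXB13 cells minus that in shCtrl cells was -2.50 on the log2 scale for GALNT12, a mucin-type glycosyltransferase gene, which had 5.39 and 5.79 FPKM in shHOXB13+shCBP cells, against 8.47 and 8.57 FPKM in shHOXB13 cells, and 0.949 and 1.39 FPKM in shCtrl+shCBP cells, against 0.291 and 0.188 FPKM in shCtrl cells. It was -1.61 for TIMP2, -1.33 for HERC3 and -1.27 for ACSL3. The interaction was positive for ZNF296 (2.21), PRAMEF12 (3.00), SLC34A2 (3.04), TRIM43 (3.04), PRAMEF1 (3.22) and CCNA1 (3.85). The last 5 are cleavage-stage genes, and their interaction depends on few reads in shHOXB13 and shCtrl cells. Whether depth or the share of reads in genes had a part in these differences was not tested.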

How the results depend on the processing

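A count is given here as lower then higher genes. In shHOXB13 cells the 191 and 68 became 155 and 40 with a pseudocount of 1, 131 and 52 with no filter, 338 and 98 with at least 1 FPKM in 2 libraries, 262 and 199 with median-of-ratios scaling, 0 and 0 with only the 4 libraries compared (limma, with 2330 and 1003 genes at an unadjusted p under 0.05; 453 and 88 with voom weights in the fit of all groups), and 495 and 137 with a mean of at least 10 recovered reads, of which 185 and 55 were calls of the first analysis. Leaving out 1 library gave 4 to 183 lower and 7 to 28 higher genes.

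In shCtrl cells the calls were 776 and 966 with median-of-ratios scaling, 0 and 0 with only the groups compared (limma, 3006 and 1627 at an unadjusted p under 0.05), and 227 to 1024 and 113 to 384 with 1 library left out. The interaction gave 143 and 113 with a pseudocount of 1, 42 and 28 with no filter, 112 lower with at least 1 FPKM, 318 and 124 with median-of-ratios scaling, 27 and 28 with only the groups compared, 239 lower with voom weights, 171 and 85 with 10 recovered reads, and 3 to 173 and 2 to 36 with 1 library left out. Against shp300 the calls were 255 higher with median-of-ratios scaling, 0 and 0 with only the groups compared (limma, 1597 and 690 at an unadjusted p under 0.05), and 72 to 333 and 41 to 73 with 1 library left out.

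The 23 genes raised by shHOXB13 and the 27 lowered by CCS1477 that fell became 11 and 17 with no filter, 44 and 43 with at least 1 FPKM, 0 and 0 with only the groups compared, 65 and 64 with voom weights, 55 and 59 with 10 recovered reads, and 0 to 12 and 0 to 15 with 1 library left out. CREBBP stayed lower (-0.72 to -0.55 with 1 library left out) and passed the test with at least 1 FPKM (-0.64), voom weights (-0.65) and 10 recovered reads (-0.64).

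With the replicate block the calls were 29 and 23 in shHOXB13 cells, 14 and 8 for the interaction, and 2 and 4 for the genes of the CCS1477-series lists, and the other counts stayed within 1.5 times. Deviations of same-numbered libraries correlated between -0.12 and 0.16 over pairs of groups (-0.05 for the groups compared). With 2 libraries per group this cannot exclude a shared batch, so whether the numbers mark pairs is unknown. Of the 68 called genes in shHOXB13 cells whose changes are named or plotted, 49 lost the call with the block, 25 with no filter, 17 with a pseudocount of 1, and 31 to 64 with 1 library left out. The lower share of the calls, 73.7%, was between 36.4% and 86.7% with 1 library left out. EP300 changed sign, to 0.081 with median-of-ratios scaling, and ranged from -0.14 to 0.10 with 1 library left out. Depth limits genes of few reads, and 3 of the 14 cleavage-stage genes called averaged under 10 reads over all knockdown libraries. Over the 4 libraries compared, TRIM49, TRIM49C, RFPL4B, PRAMEF8 and HNRNPCL1 averaged under 10 reads.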
